A study of Mus musculus with 12 samples.

Results

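The receptors for serotonin, noradrenaline, acetylcholine and histamine were followed in mouse striatum after repeated morphine. A gene was taken where its probe set carries exactly 1 symbol in the platform annotation and that symbol names a serotonin (Htr), alpha or beta adrenergic (Adra, Adrb), histamine (Hrh), nicotinic (Chrn) or muscarinic (Chrm) receptor, Chrm4 left out. These were 40 of 19935 genes on the array, each read by 1 probe set. They comprised 14 serotonin receptor genes, 2 adrenergic (Adra1b and Adra2c), 4 muscarinic, 16 nicotinic and 4 histamine receptor genes; other adrenergic receptors were not analysed here.

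The animals were male Swiss-Albino mice aged 2 months, and each of the 12 arrays held striatal RNA pooled from 4 of them. In the saline group (6 arrays) the mice received vehicle at every induction trial. In the morphine group (3 arrays) each of 6 trials on alternate days paired saline with morphine at 20 mg/kg. In the butyrate-morphine group (3 arrays) sodium butyrate, an inhibitor of histone deacetylases, at 300 mg/kg preceded the same dose of morphine. All mice were challenged 7 days after the last trial and the RNA was taken 1 h later. For the saline group the labels conflict, one naming a saline challenge and the protocol a morphine challenge, so a difference from saline may reflect repeated morphine alone or also the challenge, which cannot be told apart here. The mice are outbred, and how pools relate to cages or litters is not stated in the sources used here.

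Every value below is a log2 difference from the mean of the 6 saline arrays, which is 0 for each gene. The deposited values are centred, so no absolute level can be given. Saline arrays 1 and 2, 3 and 4, and 5 and 6 are mirror images of each other (they sum to 0 within 1e-06), so the median of saline is 0 and variation between these pairs has been removed from it. The p-values of comparisons with saline may therefore be too small. This also holds for butyrate-morphine against morphine, because the fit shares 1 spread over all groups. A gene was called at an adjusted p under 0.05, by limma with Benjamini-Hochberg adjustment over all 19935 genes. In a bulk tissue, fewer cells of a type and less RNA per cell cannot be told apart.

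Serotonin, noradrenaline and histamine reach the striatum in axons from the brainstem and hypothalamus, whereas striatal acetylcholine comes mainly from local cholinergic interneurons. Most of their receptors couple to G proteins: Gq-coupled receptors raise intracellular calcium, Gs-coupled receptors raise cyclic AMP and Gi-coupled receptors lower it. Nicotinic receptors and the serotonin 5-HT3 receptor are instead ion channels assembled from 5 subunits.

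The promoters of Htr2c and Htr7, the receptor genes with the largest rises, are shown because repeated drug exposure is known to engage the CREB and AP-1 transcription factors. Each window runs from 250 bases before to 50 bases after the start in RefSeq GRCm38.p6, in the direction of the gene. Htr2c lies on the plus strand at chrX:146962263-146962562, and its capitals mark a match to the AP-1 motif TGANTCA. Htr7 lies on the minus strand at chr19:36057311-36057610, and its capitals mark the CREB core motif TGACG, read on the opposite strand.
Htr2c: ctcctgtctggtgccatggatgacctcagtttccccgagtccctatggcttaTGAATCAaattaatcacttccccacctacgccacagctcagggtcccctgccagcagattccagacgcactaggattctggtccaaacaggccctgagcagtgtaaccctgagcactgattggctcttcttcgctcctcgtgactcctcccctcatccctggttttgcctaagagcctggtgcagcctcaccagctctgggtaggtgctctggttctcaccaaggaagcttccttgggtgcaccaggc
Htr7: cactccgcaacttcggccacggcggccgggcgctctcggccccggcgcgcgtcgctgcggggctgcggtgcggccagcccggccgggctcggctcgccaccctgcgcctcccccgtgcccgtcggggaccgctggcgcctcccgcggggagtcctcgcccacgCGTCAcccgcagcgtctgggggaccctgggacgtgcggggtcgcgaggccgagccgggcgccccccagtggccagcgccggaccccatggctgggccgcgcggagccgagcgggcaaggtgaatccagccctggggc
Both strands were searched. The AP-1 motif was present in 7.81% of 32851 such windows of all genes and in 5 of the 39 windows that 31 of the 40 receptor genes had. TGACG was present in 20.8% of all windows and in 4 of the 39. The full CREB motif TGACGTCA, which contains TGACG, occurred in 1.79% of all windows, the glucocorticoid receptor motif in 0.0578%, and neither in any of the 39. The windows of Htr1d held none of these motifs. These are matches of letters, and no binding was measured.

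By limma on the deposited values, morphine striatum had more RNA of Htr2c and Htr7 and less of Chrm1 than saline striatum. With butyrate, Htr2c alone was called. In both of these comparisons, no receptor gene was called with each saline mirror pair counted once or with quantile normalization. Calls were few over the whole array in those fits, at 0.376% to 0.933% of all genes. In morphine against saline, 3 of 40 receptor genes (7.5%) were called, beside 2.66% of all genes tested. Htr2c and Htr7 rose (1.37% of all genes were called higher) and Chrm1 fell (1.29% were called lower). In butyrate-morphine against saline, 1 of 40 (2.5%) was called, beside 2.48% of all genes, and this was Htr2c, which rose (1.85% were called higher). Over the 6 arrays of both morphine groups against saline, 2 of 40 (5%) were called, beside 4.59%. Htr2c rose (2.69% of all genes were called higher) and Htr1d fell (1.91% were called lower). These comparisons share the saline arrays. The counts are 3 or fewer, and in the last 2 comparisons the share lay close to that of all genes. The morphine arrays did not overlap with saline for 5 of the 40 (Htr2c above, Htr1d, Htr3a, Adra2c and Chrm1 below), 12.5% beside 8.20% of all genes. For butyrate-morphine this held for Htr2c, Htr1d and Chrna7, 7.5% beside 11.7%, and for all 6 treated arrays for Htr2c and Htr1d, 5% beside 3.29%.

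The 40 receptor genes had a median difference of -0.0088 in morphine (all genes -0.0036) and -0.014 in butyrate-morphine (all genes 0.0063). The median size of the difference, without its sign, was 0.0527 in morphine, beside 0.0460 over all genes, and 0.0521 in butyrate-morphine, beside 0.0488. Of the receptor genes, 17 lay above saline and 23 below it in morphine, and 15 above and 25 below in butyrate-morphine. Over all genes, 9535 lay above and 10400 below in morphine, and 10689 above and 9246 below in butyrate-morphine.

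**Figure D1:**
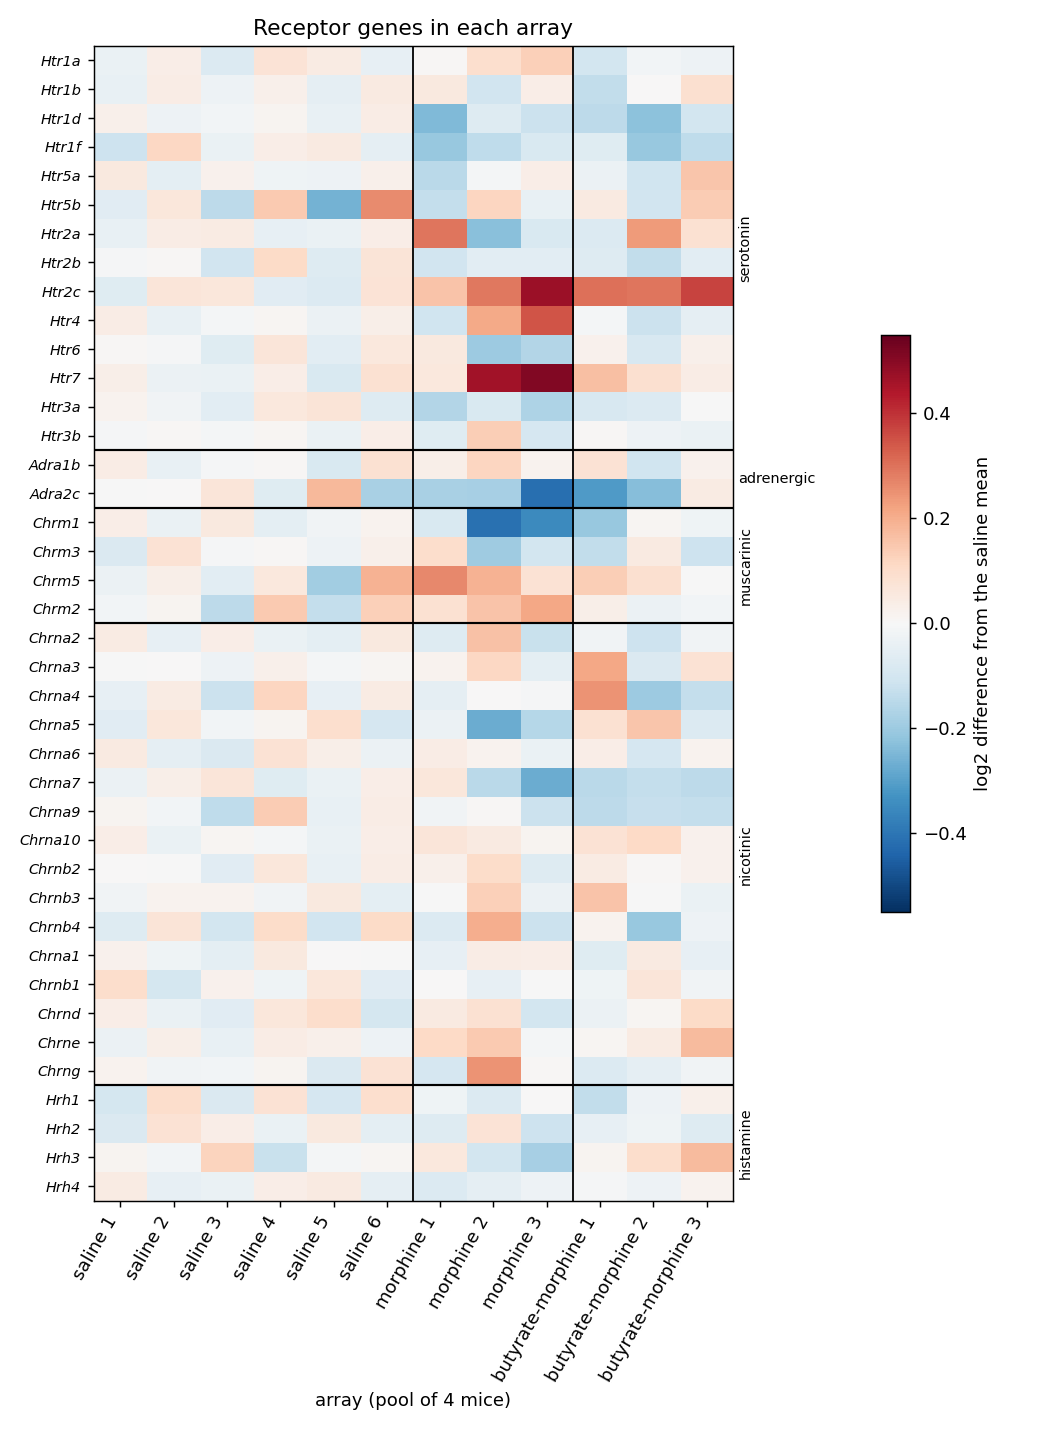
Each row is 1 of the 40 receptor genes, grouped by family, and each column 1 of the 12 arrays. Colour gives the log2 difference from the saline mean, blue below it and red above it. Htr2c is red in all 6 morphine-treated arrays, while Htr7 and Chrm1 are strongly coloured in morphine arrays 2 and 3.

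The rounding of the deposited values shows whether the value before centring was from 4 to 8 or was 8 or more, a coarse class of probe brightness. The brighter class held 23.6% of all rows and 8 of the 40 receptor genes (20%): Htr1b, Htr2a, Htr2c, Chrm1, Chrm2, Chrm3, Chrna4 and Hrh3. It also held 7 of 8 markers of striatal projection neurons, the main output cells of the striatum. Probes differ in affinity, so the class does not rank the genes by transcript number. Of the 4 called receptor genes, Htr2c and Chrm1 were in the brighter class and Htr7 and Htr1d in the dimmer one.

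Among the 3 Gq-coupled serotonin receptors, Htr2c rose and Htr2a and Htr2b were not called. Htr2c encodes the 5-HT2C receptor, known to restrain dopamine release and also abundant in choroid plexus epithelium. Its 6 saline arrays lay between -0.07 and 0.07 (median 0), the morphine arrays at 0.16, 0.29 and 0.47, and the butyrate-morphine arrays at 0.30, 0.30 and 0.37. Every morphine-treated array was above every saline array. The mean was 0.31 ± 0.16 (SD, n = 3) in morphine, 1.24-fold, with an SE of the difference of 0.0608 and an adjusted p of 0.0192 by limma. In butyrate-morphine it was 0.32 ± 0.04 (SD, n = 3), 1.25-fold, with an adjusted p of 0.0137 by limma. Over all 6 it was 0.31 (95% interval 0.21 to 0.42, adjusted p 0.0031 by limma). This rise was called without any 1 array (adjusted p at most 0.0102), though leaving out a saline array keeps its mirror image. It was not called with saline arrays 1 to 3 alone (adjusted p 0.0874) or 4 to 6 alone (0.0541). With each mirror pair counted once, it was called with saline 1, 3 and 5 (0.0355) but not 2, 4 and 6 (0.0594). In the single groups the call was lost without morphine array 3 (adjusted p 0.0895) or, with butyrate, without butyrate-morphine array 1 (0.0544) or 3 (0.0622).

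Htr2a, the 5-HT2A receptor of cortical and striatal neurons, varied widely within each treated group. Its arrays lay at 0.29, -0.23 and -0.09 in morphine and at -0.08, 0.23 and 0.08 in butyrate-morphine, against -0.04 to 0.04 in saline. Htr2b, a receptor better known from peripheral tissue, lay between -0.13 and -0.06 in the 6 morphine-treated arrays, within or just under the saline range of -0.11 to 0.11 (mean -0.08, adjusted p 0.257 by limma).

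Of the 3 Gs-coupled serotonin receptors, Htr7 rose in morphine. Htr7 encodes the 5-HT7 receptor, for which the thalamus is a main site of expression in the brain. The saline arrays lay between -0.09 and 0.09 (median 0), the morphine arrays at 0.06, 0.46 and 0.51, and the butyrate-morphine arrays at 0.16, 0.09 and 0.04. Only morphine arrays 2 and 3 and butyrate-morphine arrays 1 and 2 were above all saline arrays. The morphine mean was 0.34 ± 0.25 (SD, n = 3), 1.27-fold, with an SE of 0.0801 and an adjusted p of 0.0417 by limma; in butyrate-morphine it was 0.10 ± 0.06 (adjusted p 0.597). The morphine call rested on nearly every array: it was lost when any array but morphine array 1 was left out, with adjusted p from 0.0518 to 0.186. Without morphine array 1 the difference was 0.49 and the adjusted p 0.00028.

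Htr4, the 5-HT4 receptor, which is abundant in striatal projection neurons, had its 3 morphine arrays at -0.11, 0.21 and 0.34 and its butyrate-morphine arrays at -0.01, -0.12 and -0.05. Saline lay between -0.04 and 0.04. Arrays 2 and 3 of morphine were high, as for Htr7, and the mean of 0.15 was not called (adjusted p 0.355 by limma). Htr6, the 5-HT6 receptor of striatal neurons, was at 0.05, -0.20 and -0.16 in morphine and was not called (mean -0.10, adjusted p 0.404).

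Of the 6 Gi-coupled serotonin receptors, Htr1d fell over the 6 morphine-treated arrays. Htr1d encodes the 5-HT1D receptor, which acts on nerve terminals as a brake on transmitter release. Saline lay between -0.04 and 0.04 (median 0), morphine at -0.24, -0.07 and -0.12, and butyrate-morphine at -0.14, -0.23 and -0.10. Each of these 6 arrays was below every saline array, though the separation is small. Their mean was -0.15 ± 0.07 (SD, n = 6), a ratio of 0.901, with an SE of 0.0342 and an adjusted p of 0.0253 by limma. Neither group alone was called (adjusted p 0.0927 in morphine and 0.0711 in butyrate-morphine). The call was lost without saline array 1 (adjusted p 0.0669), 4 (0.0584) or 6 (0.0552) or without butyrate-morphine array 2 (0.0600). It was also lost with saline arrays 1 to 3 alone (0.233) or 4 to 6 alone (0.231). With each mirror pair counted once, it was lost with saline 1, 3 and 5 (0.190) and with 2, 4 and 6 (0.136). Quantile normalization (0.107) and a trended and robust eBayes (0.0580) lost it as well.

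Htr1f, the 5-HT1F receptor, was also low in most treated arrays, at -0.21, -0.14 and -0.08 in morphine and -0.07, -0.21 and -0.14 in butyrate-morphine. Saline reached from -0.11 to 0.11, so the groups overlapped, and the mean of -0.14 was not called (adjusted p 0.0748 by limma). Htr1a, the 5-HT1A receptor that also serves as autoreceptor of serotonin neurons, lay at 0.0054, 0.09 and 0.13 in morphine and at -0.10, -0.02 and -0.03 in butyrate-morphine, with saline between -0.08 and 0.08. It was called in no comparison. Htr1b, the terminal receptor carried by striatal projection neurons, had means of -0.0039 in morphine and -0.015 in butyrate-morphine. Htr5a and Htr5b had means between -0.04 and 0.03 in both groups.

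The 5-HT3 channel is built from Htr3a, which can form it alone, and Htr3b. Htr3a was at -0.16, -0.08 and -0.17 in morphine, below all saline arrays (-0.07 to 0.07), and at -0.09, -0.07 and -0.0009 in butyrate-morphine. The morphine mean was -0.14 (adjusted p 0.0944 by limma) and was not called. Htr3b, the neighbouring gene of Htr3a in RefSeq, had means of -0.0075 and -0.02.

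**Figure D2:**
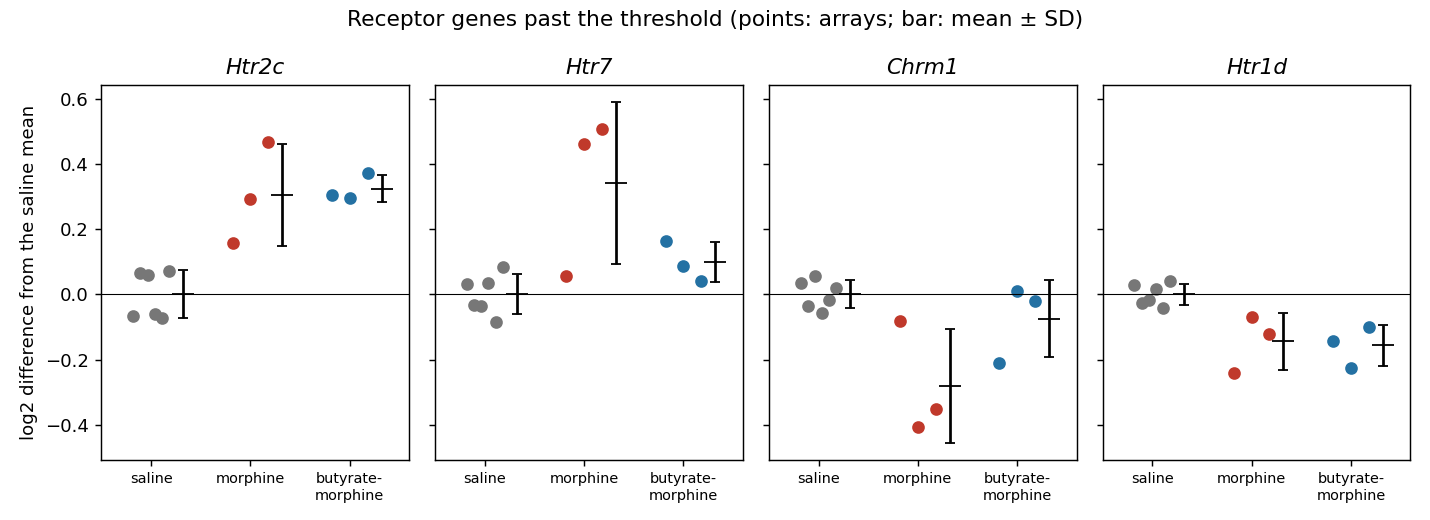
Points are the arrays of Htr2c, Htr7, Chrm1 and Htr1d in the 3 groups, on the scale of log2 difference from the saline mean, and the bars are mean ± SD (6 saline, 3 morphine and 3 butyrate-morphine arrays). Htr2c and Htr1d are shifted in both treated groups without overlap with saline, while for Htr7 and Chrm1 morphine array 1 lies apart from arrays 2 and 3.

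Of the 4 muscarinic receptors, Chrm1 fell in morphine. It encodes the Gq-coupled M1 receptor, the main muscarinic receptor of cortical pyramidal cells and also carried by striatal projection neurons. Saline lay between -0.06 and 0.06 (median 0), morphine at -0.08, -0.41 and -0.35, and butyrate-morphine at -0.21, 0.0093 and -0.02. All 3 morphine arrays were below every saline array, array 1 only narrowly. With butyrate, array 1 alone was below saline. The morphine mean was -0.28 ± 0.17 (SD, n = 3), a ratio of 0.823, with an SE of 0.0666 and an adjusted p of 0.0435 by limma, and the butyrate-morphine mean was -0.07 (adjusted p 0.637). The call was lost without any 1 saline array (adjusted p 0.0643 to 0.0873), without morphine array 2 (0.133) or 3 (0.177), and without butyrate-morphine array 3 (0.0563). It was also lost with each array centred on its median (0.0541).

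Chrm2, the Gi-coupled autoreceptor of cholinergic interneurons, lay at 0.09, 0.15 and 0.21 in morphine and at 0.03, -0.03 and -0.02 in butyrate-morphine. The saline range of -0.14 to 0.14 covered 1 of the morphine arrays, and the morphine mean of 0.15 was not called (adjusted p 0.258 by limma). Chrm5, the Gq-coupled M5 receptor of midbrain dopamine neurons, was at 0.26, 0.19 and 0.08 in morphine against a saline range of -0.19 to 0.19 (mean 0.18, adjusted p 0.220). Chrm3 had a mean of -0.07 in both groups and was not called.

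None of the 16 nicotinic subunit genes was called in any of the 4 comparisons by limma (unadjusted p under 0.05 is marked below where a gene reached it). Their differences spanned -0.15 to 0.08 in morphine and -0.14 to 0.08 in butyrate-morphine, with medians of 0.0093 and -0.0022. The 5 subunits of the muscle receptor (Chrna1, Chrnb1, Chrnd, Chrne and Chrng) lay between -0.01 and 0.08 in morphine.

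Chrna7, whose product forms the homomeric alpha7 channel, was at 0.06, -0.15 and -0.27 in morphine and at -0.15, -0.13 and -0.14 in butyrate-morphine. All 3 butyrate-morphine arrays lay below the saline range of -0.06 to 0.06, and they spread little among themselves. The butyrate-morphine mean was -0.14 (unadjusted p 0.0295, adjusted p 0.232 by limma). Chrna5, an accessory subunit that alters nicotinic channel properties, was at -0.03, -0.27 and -0.16 in morphine and at 0.08, 0.15 and -0.08 in butyrate-morphine. Saline lay between -0.09 and 0.09, and the morphine mean of -0.15 was not called (unadjusted p 0.0257, adjusted p 0.231). Chrna3 and Chrnb4, which follow Chrna5 on chromosome 9, had morphine means of 0.03 and 0.0034. Chrna9, known from hair cells, was at -0.02, 0.0068 and -0.12 in morphine and at -0.14, -0.13 and -0.13 in butyrate-morphine, inside or at the edge of a saline range of -0.14 to 0.14 (butyrate-morphine mean -0.13, unadjusted p 0.0208, adjusted p 0.199).

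Chrna6, a subunit enriched in dopamine neurons, and its neighbour Chrnb3 on chromosome 8 had morphine means of 0.0079 and 0.03. Chrna4 and Chrnb2, which form the main high-affinity nicotinic receptor of the brain, had morphine means of -0.02 and 0.02. In butyrate-morphine Chrna4 was at 0.25, -0.20 and -0.13, each outside the saline range of -0.12 to 0.12 but on opposite sides of it, so that its mean of -0.03 covers a wide spread. The butyrate-morphine means of Chrna6, Chrnb3 and Chrnb2 were -0.01, 0.04 and 0.02.

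Adra2c, the Gi-coupled alpha2C receptor that is abundant in striatum, was at -0.18, -0.18 and -0.41 in morphine and at -0.31, -0.24 and 0.05 in butyrate-morphine. Its saline arrays spread from -0.18 to 0.18, and 2 of the morphine arrays fell only just beyond the lower end. The morphine mean of -0.26 was not called (adjusted p 0.148 by limma), nor was the mean of -0.21 over all 6 (adjusted p 0.115). Adra1b, the Gq-coupled alpha1B receptor, was at 0.03, 0.12 and 0.02 in morphine and at 0.08, -0.11 and 0.02 in butyrate-morphine.

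No histamine receptor gene was called. Hrh3, the Gi-coupled receptor of histamine axons and striatal projection neurons, was at 0.06, -0.10 and -0.18 in morphine and at 0.02, 0.10 and 0.17 in butyrate-morphine, with saline between -0.12 and 0.12. Hrh1 and Hrh2, the Gq- and Gs-coupled postsynaptic receptors, had means of -0.04 each over the 6 treated arrays, and Hrh4, a receptor of blood cells, -0.03.

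What butyrate adds to morphine is addressed by butyrate-morphine against morphine. In this comparison 0 of 40 receptor genes and 0% of all genes were called by limma. At an unadjusted p under 0.05 there were 6 of 40 receptor genes (15%), beside 8.62% of all genes (1719). Butyrate-morphine was lower for Htr7 by limma's estimate of -0.24 (95% interval -0.44 to -0.04, adjusted p 0.486), for Htr4 (-0.21, -0.39 to -0.03, adjusted p 0.508) and for Htr1a (-0.12, -0.23 to -0.02, adjusted p 0.508). It was higher for Chrm1 (0.21, 0.04 to 0.37, adjusted p 0.474), Chrna5 (0.21, 0.06 to 0.36, adjusted p 0.423) and Hrh3 (0.17, 0.02 to 0.32, adjusted p 0.504). For Htr2c the difference was 0.02, with an interval of -0.13 to 0.17. These p-values and intervals use the spread shared with the saline arrays, so they may be too small and too narrow. With only these groups in the fit, 0% of all genes were called. The adjusted p by limma was then 0.859 for Htr7, Htr4 and Chrm1. Without morphine array 1, Htr7 (-0.39, adjusted p 0.0243) and Htr4 (-0.34, adjusted p 0.0297) were called lower, 2 of 40 (5%) beside 23 of all genes (0.115%) in the same fit. The arrays of both groups did not overlap for Htr1a, Chrm2 and Chrna9 (butyrate-morphine lower) and Hrh4 (higher), 10% of the receptor genes beside 10.7% of all genes.

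**Figure D3:**
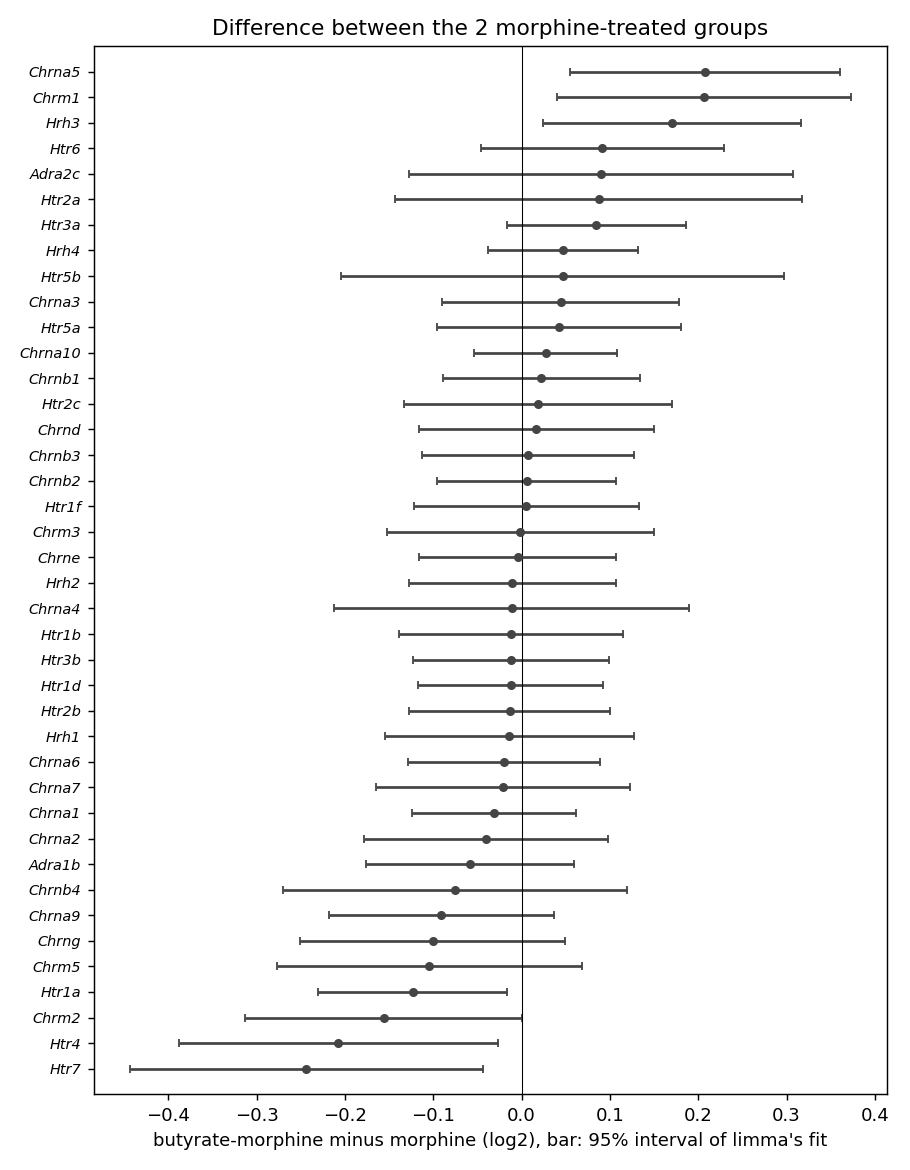
Each point is the difference of butyrate-morphine minus morphine (log2, 3 arrays each) for 1 of the 40 receptor genes, ordered by size, with the 95% interval of limma's fit. Htr7 is at the lower end (-0.24) and Chrna5 and Chrm1 at the upper end (0.21 each), and none passed the adjusted threshold.

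Markers of neighbouring tissue were set beside several of these genes, array by array. Markers of choroid plexus, the epithelium of the ventricles, were called higher in 10 of 10 cases in morphine, from Aqp1 (0.34) to Ttr (3.75), and in 8 of 10 in butyrate-morphine, Aqp1 and Slc4a5 not passing. The other 7 were Kcnj13, Kl, Folr1, Clic6, Otx2, Sostdc1 and Kcne2. Their mean was 1.29, 1.35 and 1.12 in the morphine arrays and 1.08, 0.79 and 1.07 with butyrate, against -0.11 to 0.11 in saline. Htr2c was high in the same 6 arrays. Within morphine it was highest in array 3 (0.47), where the marker mean was lowest (1.12). With butyrate both were lowest in array 2 (Htr2c 0.296, markers 0.79).

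The mean of 8 markers of thalamus and septum was 0.08, 0.47 and 0.53 in morphine and 0.43, -0.06 and 0.16 with butyrate, against -0.07 to 0.07 in saline, and 3 of the 8 (Slc17a6, Calb2 and Trpc4) were called higher in morphine. Of the 8 markers, 1 lay below saline in morphine (-0.07). With butyrate 2 lay below it and 0 were called. Htr7 and Htr4 were also high in morphine arrays 2 and 3, where the marker mean was highest. In butyrate-morphine array 1, where these markers were at 0.43, Htr7 was at 0.16 and Htr4 at -0.01.

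The mean of 5 markers of cortical excitatory neurons was 0.12, -0.68 and -0.24 in morphine and -0.13, 0.03 and -0.09 with butyrate, against -0.06 to 0.06 in saline, and none of the 5 was called. Slc17a7, Tbr1 and Neurod6 carried this mean, with morphine differences of -0.51, -0.41 and -0.53. Emx1 was at -0.08 and Rasgrf2 at 0.21, in the other direction. Over both treated groups the lowest p-values were those of Neurod6 (-0.33, adjusted p 0.191 by limma) and Rasgrf2 (0.12, adjusted p 0.229). Chrm1 was lowest in morphine arrays 2 and 3 and, with butyrate, in array 1. The mean of 8 striatal projection neuron markers was -0.10, -0.13 and -0.15 in morphine and -0.03, -0.0016 and 0.03 with butyrate, and Drd2 and Pde10a were called lower in morphine. The part of any of these tissues in the receptor values, or in those of the other genes named here, was not tested.

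**Figure D4:**
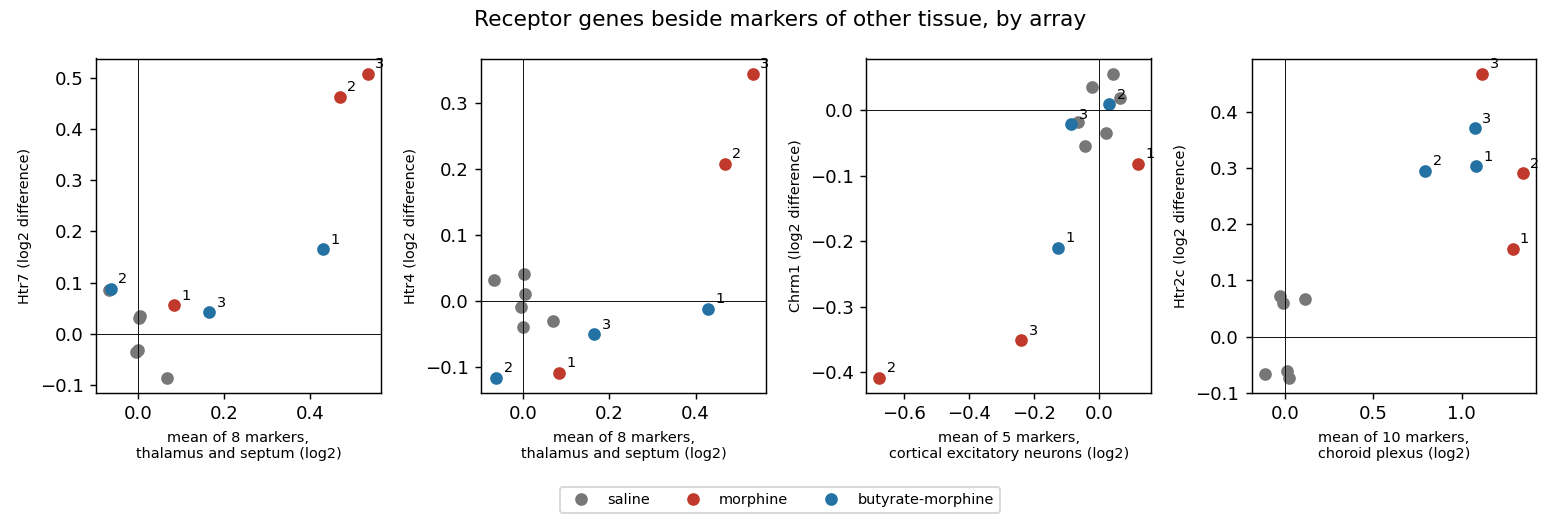
Each panel sets a receptor gene (vertical, log2 difference from saline) against the mean of a marker list (horizontal, log2) in the 12 arrays, with treated arrays numbered. Htr7 and Htr4 are shown beside thalamus and septum, Chrm1 beside cortical excitatory neurons and Htr2c beside choroid plexus; in morphine arrays 2 and 3 Htr7 lies at 0.46 and 0.51 and the thalamic mean at 0.47 and 0.53.

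Among the lists of other cell types, some held called markers and others held none. For all marker lists, the share of all genes called was 2.66% in morphine, 2.48% with butyrate and 4.59% over both groups. How the calls of marker genes depend on the settings was not examined. None of the 7 cholinergic interneuron markers, 6 dopamine neuron markers or 7 oligodendrocyte markers was called by limma. Over both treated groups the lowest p-values of these lists were those of Slc18a3 (-0.11, adjusted p 0.325) and Slc17a8 (0.06, 0.551), of Slc18a2 (0.08, 0.519) and Pitx3 (-0.05, 0.614), and of Opalin (-0.24, 0.116) and Mobp (0.13, 0.210). Of 9 endothelial markers Kdr, Cldn5, Tek and Flt1 were called lower in each treated group. Of 8 microglial markers Cx3cr1 was called lower in both groups and Itgam in morphine. Of the 8 habenula markers Nwd2 was called lower in both groups and of 9 astrocyte markers Gjb6 higher in both. Of 8 pericyte and smooth muscle markers Rgs5 was called lower in morphine, and with both groups combined also Pdgfrb.

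Genes that make, carry or clear the transmitters were measured beside their receptors, 19 of 21 on the list. In morphine 2 of the 19 were called, both higher, beside 1.37% of all genes called higher. Whether the calls on this list hold under other settings was not examined. Slc29a4, a low-affinity transporter of serotonin that is also abundant in choroid plexus, was at 0.32, 0.47 and 0.25 in morphine and at 0.32, -0.10 and 0.23 with butyrate (morphine mean 0.35, adjusted p 0.0301 by limma). Maob, monoamine oxidase B, was at 0.13, 0.19 and 0.31 in morphine and at 0.12, 0.12 and 0.16 with butyrate (morphine mean 0.21, adjusted p 0.0485).

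With butyrate none of the 19 was called, beside 2.48% of all genes. Of the 19, 2 were called higher and 1 lower over both groups, beside 2.69% and 1.91% of all genes. Over both groups Slc29a4 (0.25, adjusted p 0.0384 by limma) and Maob (0.17, adjusted p 0.0363) rose and Tph2, the neuronal serotonin-synthesising enzyme, fell (-0.12, adjusted p 0.0321). Tph2 lay between -0.16 and -0.08 in the 6 treated arrays, all below the saline range of -0.07 to 0.07. The separation is small, with morphine array 2 at -0.078 and saline array 1 at -0.071. Its probe set is in the dimmer class. Of 13 measured receptor chaperones and Ly6 proteins, 0 were called in any of the 4 comparisons. The 2 with the lowest p over both treated groups were Rapsn, which clusters muscle nicotinic receptors (-0.10, unadjusted p 0.0327, adjusted p 0.212 by limma), and Musk, its partner kinase at the neuromuscular junction (0.05, unadjusted p 0.141, adjusted p 0.437).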

How the data were processed

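Each RNA pool was read on 1 Affymetrix Mouse Gene 1.0 ST array. The values used are the log table deposited by the authors, 28815 rows and 12 arrays, taken here as log2. The sources used here give neither the log base nor the normalization nor the arrays used for centring. Of the rows, 21780 had 1 gene symbol in the platform annotation, 1605 several and 5430 none. Probe sets were averaged per gene (998 of 19935 genes had more than 1), and all 40 receptor genes matched RefSeq GRCm38.p6 by Entrez ID.

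Groups came from the titles. One limma 3.58.1 fit (lmFit and eBayes, R 4.3.3) held all 12 arrays and 3 group means, with 9 residual and 3.99 prior degrees of freedom. The median residual SD was 0.0726, and array medians ran from -0.0172 to 0.0121. The number of arrays limits the precision. The fit counts the saline arrays as independent, although they are mirror pairs, so its p-values do not fully reflect how pools of mice varied. All comparisons share the spread of this fit.

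Receptors past the threshold are given in full, then those of each family with an unadjusted p under 0.05, or failing 2 such, the 2 with the largest difference over the 6 treated arrays. From each list of other genes, members past the threshold are named, or else the 2 with the lowest p. The marker lists plotted beside receptors were picked with their values in view. The receptor genes and lists were chosen with earlier results of these data known. Same-numbered morphine and butyrate-morphine arrays did not deviate together (correlations -0.122, -0.266 and -0.203), so numbers were not used as pairs.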

Additional observations from a re-analysis of the deposited data

Results flagged for a closer look

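Htr1a differed in direction between the treated groups. All 3 morphine arrays lay above the saline mean (0.0054, 0.09 and 0.13) and all 3 butyrate-morphine arrays below it (-0.10, -0.02 and -0.03), a difference of -0.12 on the log2 scale. Tested directly by limma, it had an unadjusted p of 0.0272 and an adjusted p of 0.508, so it was not called. Of these 6 arrays, morphine array 1 and butyrate-morphine arrays 2 and 3 lay inside the saline range of -0.08 to 0.08.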

How the results depend on the processing

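Counts of called receptor genes were small and moved with the settings. For morphine against saline (3), 5 were called at an adjusted p under 0.1 and 0 at under 0.01. With the baseline at 0, 1 was called (1.87% of all genes). The count was 0 with quantile normalization (0.376% of all genes) and with a trended and robust eBayes (1.16%). It was also 0 with saline arrays 1 to 3 (0.502%) or 4 to 6 (0.482%) alone. Each mirror pair counted once by either member gave 0 as well (0.587% and 0.933%). Leaving out 1 array gave 0 to 6. The count was 0 without morphine array 3 (1.2% of all genes called). It was 6 without morphine array 1 (15% of the receptor genes beside 5.28% of all genes). It was 1 without any 1 saline array (1.51% to 2.04% of all genes), morphine array 2 (2.47%) or butyrate-morphine array 3 (2.3%). For butyrate-morphine against saline (1), 2 were called at under 0.1 and with array weights (4.6% of all genes), and 3 with only the groups compared (4.96%). The count was 0 at under 0.01 and with quantile normalization (0.502% of all genes). It was also 0 under the saline subsets and mirror pairs (0.527% to 0.722%). Leaving out 1 array gave 0 to 2: 0 without butyrate-morphine array 1 or 3 (1.07% and 1.67% of all genes), and 2 without morphine array 1 or 2 (3.14% and 3.65%). For butyrate-morphine against morphine (0), leaving out 1 array gave 0 to 2, with 2 (Htr4 and Htr7) without morphine array 1. For both groups against saline (2), 5 were called at under 0.1, 4 with array weights (7.43% of all genes) and 6 with the baseline at 0 (10.1%). The count was 1 at under 0.01, with quantile normalization (0.973%), a trended and robust eBayes (2.63%) and saline arrays 1, 3 and 5 (1.05%). Among probe sets of the brighter class it was 1 of 8 (6.52% of the genes tested there). With saline arrays 2, 4 and 6 (1.49%), 1 to 3 (0.823%) or 4 to 6 (0.712%) it was 0. Leaving out 1 array gave 1 to 5. The count was 5 without morphine array 1 (12.5% beside 6.86% of all genes). It was 1 without saline array 1, 4 or 6 or butyrate-morphine array 2 (2.77% to 3.56% of all genes). With the replicate block, which keeps saline arrays 1 to 3 only, 0 were called in any of the 4 comparisons (0% to 0.416% of all genes). This block ties arrays of the same number across groups. It does not follow the mirror pairs, since saline arrays 1 and 2 fall in different blocks. The saline subsets use fewer arrays; the cause of the other changes was not tested.

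For the 34 results of single named genes and comparisons with an unadjusted p under 0.05 (or, failing that, over both groups), 811 alternative values were computed: 724 kept direction and side of the threshold, 69 lost the call, 17 gained it and 1 turned: Hrh1 over both groups was 0.0528 with saline arrays 1, 3 and 5 alone, against -0.04. Only results called in the main fit could lose the call, namely those of Htr2c, Htr7, Chrm1 and Htr1d given above, so all 69 losses fell on them. Most of the 34 results were not called in the main fit, and the 724 include those that stayed uncalled. The 724 therefore do not measure how stable the calls were. Over all 160 results of 40 genes and 4 comparisons, 79 changed sign under at least 1 alternative. The size of the difference in these was at most 0.09. Signal over background cannot be read from centred values, so dim probes were not filtered.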
